A study of Mus musculus with 24 samples.

Results

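The genes described here are 10 enzymes and subunits that write or erase N6-methyladenosine (m6A) in RNA, taken by name from a deposited table of 55291 gene rows. They are Mettl3, Mettl14, Wtap, Virma, Rbm15, Zc3h13 and Cbll1 of the writer complex, Mettl16, a separate writer, and the erasers Fto and Alkbh5. All 10 were found in the count and TPM tables and passed the filter on low counts, so that none is left out below. Poly(A) RNA from mouse hippocampus was profiled by m6A immunoprecipitation and sequencing in 12 animals, in 3 groups of 4. Untreated wild-type mice formed the first group, and 5xFAD mice received either vehicle or MS1262 in the others. The 5xFAD line carries human transgenes for mutated amyloid precursor protein and presenilin under the neuronal Thy1 promoter and develops amyloid plaques. MS1262 is named in the series title as a brain-penetrant inhibitor of G9a, a histone methyltransferase. Each animal gave an input library, which measures expression, and an immunoprecipitated (IP) library from an anti-m6A antibody. The wild-type mice got no vehicle, so genotype and dosing cannot be told apart in comparisons with them, and both other groups carry the transgenes.

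In the writer complex, Mettl3 is the catalytic subunit and Mettl14 its partner, which holds the RNA. Wtap, Virma, Zc3h13 and Cbll1 form a scaffold around this pair, and Rbm15 binds RNA and recruits the complex. Mettl16 methylates a small set of structured RNAs, among them the transcript of the S-adenosylmethionine synthetase Mat2a. Fto and Alkbh5 are dioxygenases that remove the methyl group. In the brain, the m6A system is known for roles in neurogenesis, axon growth and memory.

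Input libraries held 20.7 to 43.2 M estimated counts (M, units of 1000000) and IP libraries 3.98 to 48.6 M, the shallowest being the IP of vehicle animal 4. All 7 neuronal and all 8 hippocampal neuron markers lay above 1 TPM (transcripts per 1000000, scaled by transcript length) in every input library. The summed level of 8 microglial markers ranged over 204 to 240 CPM (counts per 1000000 of the library) in wild-type, 238 to 518 in vehicle and 324 to 402 in MS1262 animals. The summed level of 5 choroid plexus markers reached 7522 CPM in vehicle animal 3, against at most 799 CPM in the other animals. Vehicle animal 3 also had a summed level of Xist and 4 Y-linked genes of 1.304 CPM, against 21.4 CPM or more in every other animal. None of the 5 genes can therefore exceed 1.304 CPM in vehicle animal 3, while the sum in the others does not separate Xist from the Y-linked genes. The part of microglial or choroid plexus RNA in the values below was not tested, and each comparison with the vehicle group was also run without vehicle animals 3 and 4. In whole tissue, fewer cells of a type and less RNA per cell cannot be told apart.

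The writer and eraser transcripts spanned a wide range of abundance in input RNA, with Fto at the top and Rbm15 at the bottom. TPM, which is scaled by transcript length, allows levels of different genes to be set side by side. Fto averaged 47.1 ± 10.0 TPM over the 12 animals (SD), followed by Zc3h13 at 20.04 ± 3.45 TPM and Mettl3 at 14.5 ± 2.22 TPM. Cbll1 (11.8 ± 1.55 TPM), Wtap (9.58 ± 1.21 TPM) and Virma (7.50 ± 0.732 TPM) came next. The lowest were Alkbh5 (4.69 ± 0.835 TPM), Mettl14 (4.45 ± 0.757 TPM), Mettl16 (4.10 ± 1.65 TPM) and Rbm15 (1.03 ± 0.228 TPM). Between neighbours in this order, the ranges over animals were separate only for Fto above Zc3h13, Virma above Alkbh5 and Mettl16 above Rbm15. Alkbh5 exceeded Mettl14 in 7 of 12 animals, and Mettl14 exceeded Mettl16 in 9 of 12, so the order of these 3 is not fixed by the data. The coefficient of variation of input CPM over 12 animals had a median of 12.99% for the 10 genes, against 23.06% for the 18300 genes tested. Virma varied least, at 6.985%, which is the 1.61th percentile of all genes tested, and Rbm15 most, at 22.34%. On the same percentile scale, Rbm15 lay at 48.61, Fto at 42.99, Mettl16 at 38.7 and Alkbh5 at 38.2. These percentiles are not matched for level, and all genes but Rbm15 lay at a percentile of 58.3 or above in CPM. In TPM Mettl16 varied most, at 40.2% against 22.1% for Rbm15.

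**Figure D1:**
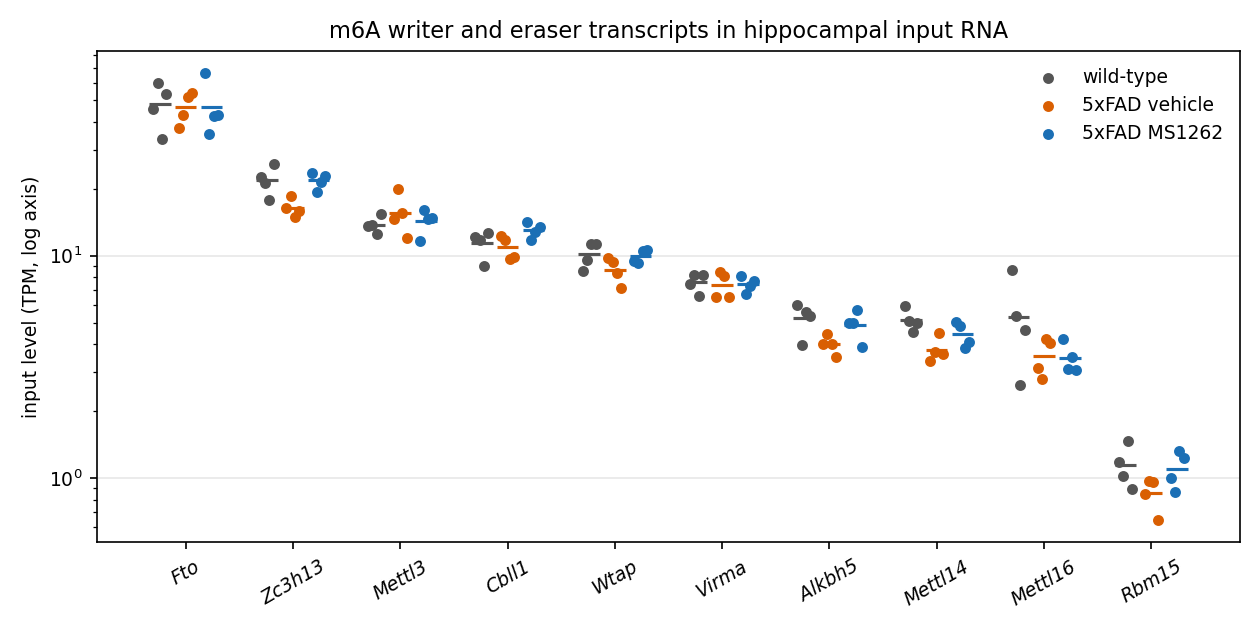
Input level in TPM on a log axis for each of the 10 genes, 1 point per animal and a bar at the mean of each group of 4. Fto lies above all others in every animal and Rbm15 below 1.47 TPM throughout. The groups overlap except for Mettl14 between vehicle and wild-type (as for 9.89% of all genes tested) and Zc3h13 between MS1262 and vehicle (4.47%).

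The level of the catalytic pair was set side by side in input RNA. Mettl3 (chromosome 14, 52294841 to 52308741, minus strand; GRCm38 here and below) measured 13.6, 13.7, 12.6 and 15.3 TPM in wild-type animals 1 to 4, 14.7, 19.9, 15.5 and 11.997 TPM in vehicle animals, and 11.6, 16.1, 14.6 and 14.8 TPM in MS1262 animals. Mettl14 (chromosome 3, 123368295 to 123385990) measured 5.91, 5.08, 4.52 and 4.96 TPM in wild-type, 3.36, 3.68, 4.48 and 3.603 TPM in vehicle, and 5.05, 4.83, 3.82 and 4.10 TPM in MS1262 animals. Mettl3 levels overlapped between all groups, whereas every vehicle animal lay below every wild-type animal for Mettl14, at most 4.48 against at least 4.52 TPM. In input TPM, vehicle and wild-type animals did not overlap for 9.89% of all genes tested. The ratio of Mettl3 to Mettl14 in input TPM averaged 2.72 ± 0.324 for wild-type, 4.14 ± 0.969 for vehicle and 3.26 ± 0.675 for MS1262 animals (SD, n = 4). In TPM the wild-type ratios (2.30 to 3.09) did not overlap those of vehicle (3.33 to 5.42). In CPM they did, with 1.24 to 1.60 in wild-type and 1.59 to 2.15 in vehicle animals. These ratios are given as a description, with no test and no share over other pairs of genes.

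No writer or eraser transcript passed the test between groups in input RNA. Between vehicle and wild-type animals, 0 of 10 passed in edgeR's quasi-likelihood test at an adjusted p below 0.05, where 1.57% of 17693 genes did. None of the 10 had an unadjusted p below 0.05, as 12.8% of all genes did. DESeq2 and limma on log2(TPM + 1) also called 0 of the 10, beside 3.45% and 1.44% of all genes. In limma, Mettl14 and Zc3h13 had an unadjusted p below 0.05, as 17.5% of all genes did (limma adjusted p = 0.205 and 0.117). The median difference of all genes on that log2(TPM + 1) scale was −0.0941. Between MS1262 and vehicle, 0 of 10 passed against a background of 0.0% (5.67% of genes, and 1 of the 10, had an unadjusted p below 0.05, and DESeq2 and limma called 0 genes). Between MS1262 and wild-type, 0 of 10 passed against 1.3% of all genes, with 1 of the 10 and 14.3% of all genes at an unadjusted p below 0.05. There DESeq2 and limma called 0 of the 10, beside 3.59% and 0.701% of all genes. The median log2 difference of the 10 genes was −0.08 for vehicle against wild-type, 0.11 for MS1262 against vehicle and 0.02 for MS1262 against wild-type, beside medians of 0.01, −0.01 and −0.00 over all genes tested. The 3 comparisons share groups, so that their values are not independent of each other.

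Within the writer complex, the lowest p between vehicle and wild-type belonged to Mettl14. Its input level was 17.4, 13.9, 14.001 and 13.5 CPM in wild-type animals, 11.2, 11.4, 13.3 and 12.3 CPM in vehicle animals and 13.8, 14.4, 12.47 and 11.8 CPM in MS1262 animals. Vehicle animals lay below all wild-type animals by a small margin, and MS1262 animals overlapped both groups. Mettl14 was the only one of the 10 genes whose vehicle and wild-type input CPM did not overlap, a pattern shown by 6.99% of all genes tested. In CPM no gene of the 10 was without overlap between MS1262 and vehicle (3.34% of all genes) or between MS1262 and wild-type (9.9%). In input TPM the genes without overlap were Mettl14 between vehicle and wild-type (9.89% of all genes), Zc3h13 between MS1262 and vehicle (4.47%) and none between MS1262 and wild-type (8.8%). The log2 difference of Mettl14, vehicle against wild-type, was −0.27 (95% interval −0.56 to 0.01, edgeR adjusted p = 0.410). Over all alternatives run, the adjusted p lay between 0.192 and 0.668. For Mettl3, the same log2 difference was 0.13 (interval −0.19 to 0.45, edgeR adjusted p = 0.786).

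Among the scaffold subunits, Zc3h13, which anchors the complex in the nucleus, had the lowest p between MS1262 and vehicle. Zc3h13 (chromosome 14, 75284306 to 75344433, plus strand) measured 83.0, 71.4, 76.6 and 84.2 CPM in wild-type, 75.6, 79.3, 70.9 and 67.6 CPM in vehicle and 95.6, 87.1, 88.6 and 73.8 CPM in MS1262 animals. In CPM, MS1262 animals 1 to 3 exceeded every vehicle animal and animal 4 did not. In TPM all 4 MS1262 animals (19.4 to 23.6) lay above the vehicle animals (14.9 to 18.5). The log2 difference was 0.23 (95% interval 0.02 to 0.44, unadjusted p = 0.0343, edgeR adjusted p = 0.848), so it did not pass. On the log2(TPM + 1) scale it was 0.39, beside a median of 0.0649 over all genes, and did not pass either (limma adjusted p = 0.712). Cbll1, also called Hakai (chromosome 12, 31484829 to 31500676, minus strand), measured 47.8, 45.9, 36.5 and 44.9 CPM in wild-type, 52.6, 47.2, 40.1 and 46.1 CPM in vehicle and 50.2, 47.2, 53.1 and 54.5 CPM in MS1262 animals. All 3 groups overlapped, wild-type and MS1262 only through wild-type animal 1. Its log2 difference, MS1262 against wild-type, was 0.24 (95% interval 0.00 to 0.47, unadjusted p = 0.0460, edgeR adjusted p = 0.338).

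The remaining subunits did not pass either, and the intervals show how large a difference the data allow. Virma, the scaffold subunit that is tied to methylation near the 3′ end of transcripts (chromosome 4, 11485958 to 11551143), was the most tightly bounded. Its input level was 47.0, 51.2, 42.6 and 48.8 CPM in wild-type, 46.7, 53.4, 54.7 and 50.5 CPM in vehicle and 50.0, 45.1, 49.5 and 51.3 CPM in MS1262 animals. The groups overlapped, and the log2 difference between vehicle and wild-type was 0.13 (95% interval −0.07 to 0.32). Wtap, which links the catalytic pair to the scaffold (chromosome 17, 12966799 to 12992543, minus strand), ranged over 20.4 to 27.1 CPM in all 12 animals, with a log2 difference of −0.07 between vehicle and wild-type (interval −0.33 to 0.20). Rbm15 (chromosome 3, 107305511 to 107334460, minus strand) was the least bounded, with a level of 3.53 to 6.95 CPM. Its log2 difference between vehicle and wild-type was −0.28, with an interval of −0.77 to 0.20.

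Mettl16 (chromosome 11, 74770815 to 74826855, plus strand) measured 35.6, 25.0, 19.1 and 24.9 CPM in wild-type animals, 24.4, 17.9, 22.4 and 24.4 CPM in vehicle animals and 22.5, 22.8, 26.7 and 23.7 CPM in MS1262 animals. The wild-type animals spanned nearly the whole range, and the groups overlapped. The log2 difference was −0.22 for vehicle against wild-type (95% interval −0.57 to 0.13; −0.04 without wild-type animal 1 and −0.34 without wild-type animal 3) and 0.10 for MS1262 against vehicle (interval −0.25 to 0.45).

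Neither eraser passed the test. Fto (chromosome 8, 91313367 to 91668433, plus strand) measured 168, 211, 124 and 177 CPM in wild-type, 151, 157, 195 and 233 CPM in vehicle and 221, 132, 161 and 160.5 CPM in MS1262 animals. Each group held both low and high animals. Its log2 difference was 0.13 for vehicle against wild-type (95% interval −0.26 to 0.51) and −0.13 for MS1262 against vehicle (interval −0.52 to 0.26). Alkbh5 (chromosome 11, 60537683 to 60558512, plus strand) measured 36.1, 23.1, 33.9 and 28.7 CPM in wild-type, 26.5, 21.0, 24.9 and 24.6 CPM in vehicle and 27.7, 30.1, 35.6 and 23.9 CPM in MS1262 animals. Vehicle animals lay in the lower part of the range, within which wild-type animal 2 and MS1262 animal 4 also fell. The log2 difference was −0.32 for vehicle against wild-type (95% interval −0.65 to 0.02, edgeR adjusted p = 0.419) and 0.27 for MS1262 against vehicle (interval −0.06 to 0.60, edgeR adjusted p = 0.863). Both erasers together made up 40.8 ± 3.64% of the summed input TPM of the 10 genes for wild-type animals, 42.9 ± 5.24% for vehicle animals and 40.1 ± 5.44% for MS1262 animals (SD, n = 4).

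**Figure D2:**
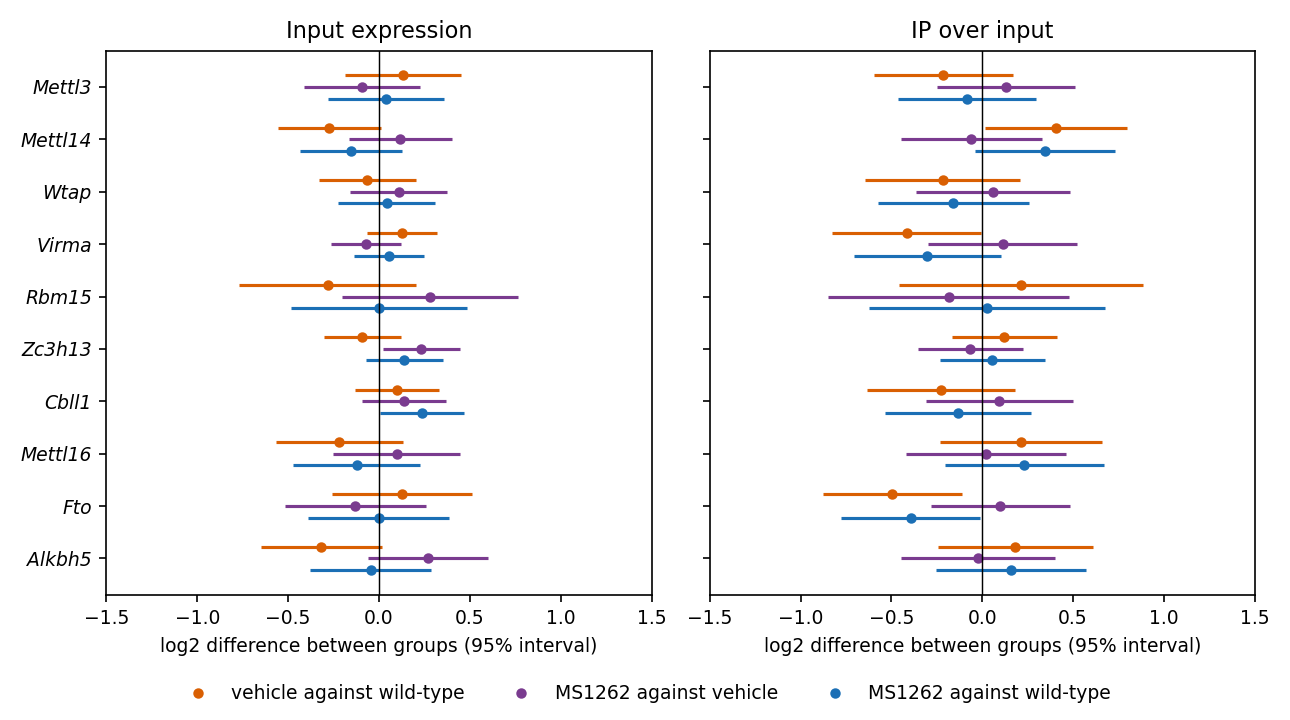
Log2 differences between groups with 95% intervals from the edgeR fits, for input expression (left) and for IP over input (right). Each of the 10 genes has 1 point per comparison, and no point passed the adjusted threshold, with the largest differences for Fto (−0.49) and Virma (−0.42) in IP over input of vehicle against wild-type.

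The antibody enriched some of these transcripts and depleted others. IP and input of the same animal were compared in a fit with the animal as a block, and 9 of the 10 genes passed over all animals, where 55.9% of 18300 genes did. Of the 10, 5 were higher in the IP (background 28.2%) and 4 lower (background 27.7%), and their median log2 difference was 0.09, beside 0.00 over all genes. Since input and IP are scaled to each other, a value of 0 stands for the typical gene, not for an unmethylated one.

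Fto was enriched most. Its IP level was 399, 354, 385 and 486 CPM in wild-type, 281, 284, 334 and 349 CPM in vehicle and 307, 263, 324 and 328 CPM in MS1262 animals, above the animal's own input in 12 of 12. Every wild-type animal exceeded every vehicle and every MS1262 animal in IP CPM, while the input levels overlapped. In IP TPM vehicle animal 4, at 155.5, lay above wild-type animal 1, at 148.5. The fitted IP level was 1.97 times input (log2 0.98, SE 0.07, edgeR adjusted p = 9.24e-09). By group the log2 difference was 1.27 for wild-type animals, 0.78 for vehicle and 0.88 for MS1262, past the threshold in each.

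In CPM Virma came next among the enriched transcripts, with IP levels of 77.8, 76.0, 78.1 and 74.4 CPM in wild-type, 72.3, 72.6, 75.6 and 34.1 CPM in vehicle and 64.4, 62.3, 62.6 and 67.5 CPM in MS1262 animals. Vehicle animal 4, whose IP library was the shallowest, stood far below the rest and was the only animal with Virma lower in the IP than in its input. Over all animals the log2 difference was 0.45 (SE 0.08, edgeR adjusted p = 0.000103). In vehicle animals it was 0.28 and did not pass (edgeR adjusted p = 0.130), and without vehicle animal 4 it was 0.52 and did (edgeR adjusted p = 1.47e-05).

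In CPM the catalytic pair and Mettl16 were enriched by less. In TPM less the median gene the order turned, with a limma log2 difference of 0.75 for Mettl16, 0.62 for Virma and 0.61 for Mettl14. Mettl14 had IP levels of 15.8, 18.3, 13.9 and 14.8 CPM in wild-type, 15.9, 20.4, 19.97 and 12.3 CPM in vehicle and 18.7, 17.6, 18.9 and 16.2 CPM in MS1262 animals. It was above input in 9 of 12 animals, with a log2 difference of 0.35 (SE 0.07, edgeR adjusted p = 0.000679). In wild-type animals alone that difference was 0.10 and did not pass (edgeR adjusted p = 0.613). Mettl3 was above input in 11 of 12 animals, all but vehicle animal 2, with a log2 difference of 0.30 (SE 0.07, edgeR adjusted p = 0.00238). Mettl16 was above input in 10 of 12 animals, with a log2 difference of 0.23 (SE 0.09, edgeR adjusted p = 0.0320). This Mettl16 call ended in 8 of 12 single omissions of an animal (edgeR adjusted p between 0.00331 and 0.0895 over the 12). Its size depends on the unit, as the value of 0.75 in TPM shows.

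Zc3h13, Alkbh5, Wtap and Rbm15 were depleted in the IP relative to the typical gene. Zc3h13 had IP levels of 59.3, 50.4, 41.7 and 48.5 CPM in wild-type, 54.5, 55.8, 45.2 and 46.6 CPM in vehicle and 55.7, 57.2, 54.3 and 58.5 CPM in MS1262 animals, below its input in 12 of 12. Its log2 difference was −0.60 (SE 0.06, edgeR adjusted p = 9.27e-08), with −0.66, −0.54 and −0.61 in wild-type, vehicle and MS1262 animals, past the threshold in each. Alkbh5 was below its input in 12 of 12 animals, with a log2 difference of −0.57 (SE 0.08, edgeR adjusted p = 1.29e-05). Wtap was below its input in 12 of 12 animals as well, with −0.53 (SE 0.08, edgeR adjusted p = 2.79e-05). Rbm15 was below in 11 of 12, all but wild-type animal 4, with −0.49 (SE 0.13, edgeR adjusted p = 0.00334). Wtap and Alkbh5 were lowest in vehicle animal 4, at IP to input ratios of 0.37 and 0.38, against at least 0.55 in all other animals. Cbll1 did not pass, with a log2 difference of −0.05 (SE 0.08, edgeR adjusted p = 0.604) and 6 of 12 animals above input.

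These signs are relative to the scaling. On the log2(TPM + 1) scale the median of all genes lies 0.365 above 0 for IP against input, and there Wtap (0.07), Rbm15 (0.05) and Alkbh5 (0.07) turn to the positive side without passing, Zc3h13 stays negative without passing (−0.13), and Cbll1 passes at 0.59. When each animal is centred on its median gene, the 4 depleted genes are negative again and pass, from −0.31 for Wtap to −0.52 for Zc3h13, and Cbll1 passes at 0.21 (limma adjusted p = 0.00850). By group, 6 of the 10 genes passed in wild-type (background 33.0%), 5 in vehicle (39.7%) and 6 in MS1262 animals (38.1%). In MS1262 the count was 3 without MS1262 animal 3 (background 28.6%), and 3 to 5 over the single omissions (background 28.3% to 33.3%).

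**Figure D3:**
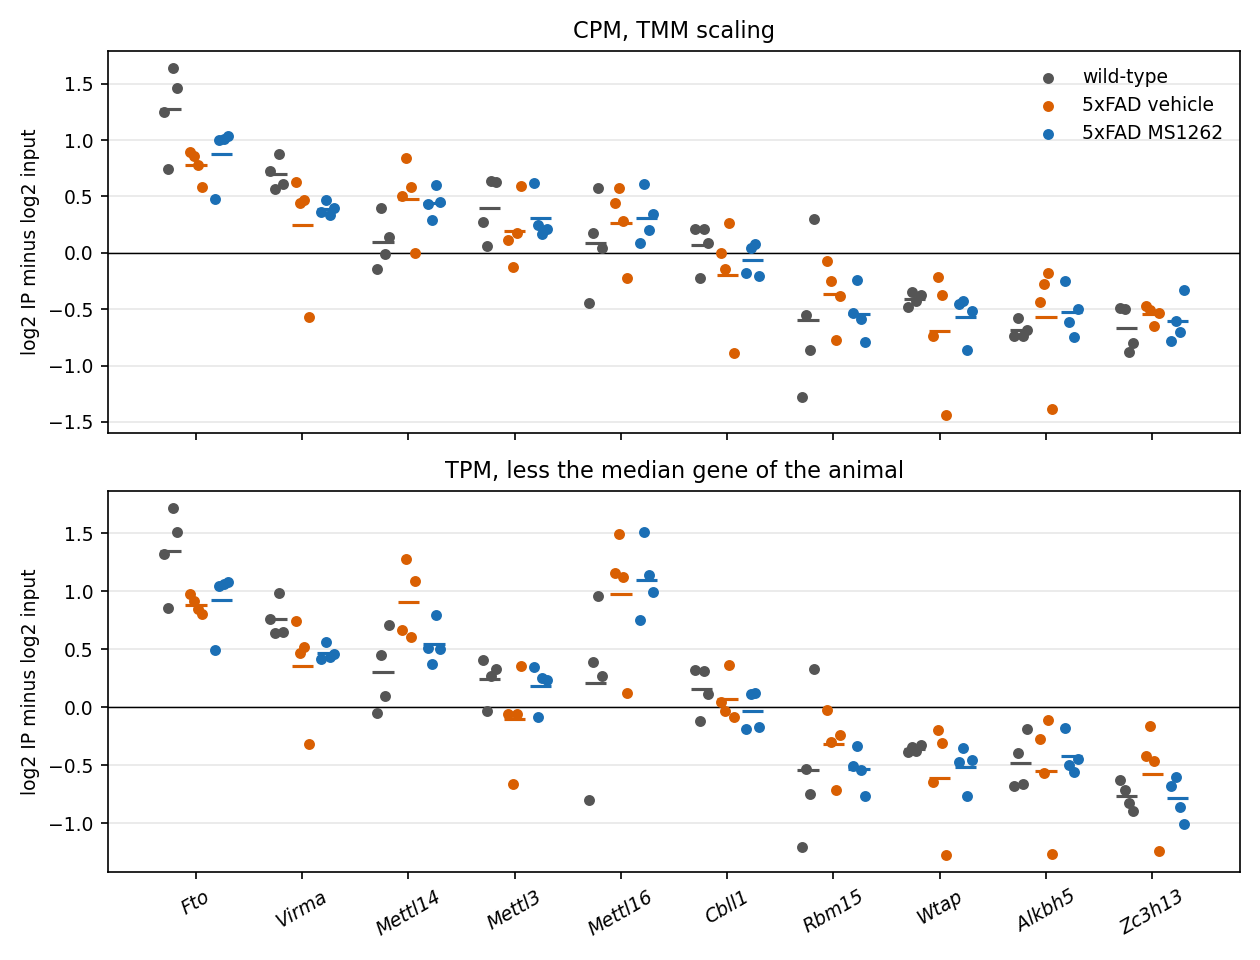
Log2 IP minus log2 input for the 10 genes, 1 point per animal and a bar at the mean of each group of 4, from CPM with TMM scaling (top) and from TPM less the median gene of the animal (bottom). Fto is above 0 in all 12 animals and Wtap, Alkbh5 and Zc3h13 below 0 in all 12 in both panels. These positions hold relative to the typical gene only. On uncentred TPM the means of Wtap, Rbm15 and Alkbh5 over the 12 animals are positive, with 8, 6 and 9 animals above 0.

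Differences in IP over input between groups were tested next. Between vehicle and wild-type, 0 of 10 passed in edgeR, where 0.989% of 18300 genes did, and 3 of the 10, beside 11.7% of all genes, had an unadjusted p below 0.05. Between MS1262 and vehicle, 0 of 10 passed against 0.0% of all genes (2.37% of genes and none of the 10 had an unadjusted p below 0.05, and DESeq2 called 2 genes and limma 0). Between MS1262 and wild-type, 0 of 10 passed against 1.24%, with 1 of the 10 and 11.1% of all genes at an unadjusted p below 0.05. DESeq2 and limma on log2(TPM + 1) called 0 of the 10 in each. Of all genes, DESeq2 called 2.75% between vehicle and wild-type and 2.81% between MS1262 and wild-type, and limma 0.18% and 0.0164%. The median difference of the 10 genes was −0.05, 0.04 and −0.03 on the log2 scale in these 3 comparisons, beside −0.06, 0.05 and −0.00 over all genes. Without vehicle animals 3 and 4, 0 of the 10 passed in either comparison with the vehicle group. Then 1.76% of all genes passed between vehicle and wild-type, and 0% between MS1262 and vehicle.

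Fto had the largest difference in IP over input. The log2 IP minus input was 1.25, 0.74, 1.64 and 1.46 in wild-type, 0.90, 0.86, 0.78 and 0.58 in vehicle and 0.47, 1.00, 1.01 and 1.03 in MS1262 animals. Of the wild-type animals, 1, 3 and 4 lay above all 5xFAD animals, and animal 2 lay among them. The log2 difference was −0.49 for vehicle against wild-type (95% interval −0.88 to −0.11, unadjusted p = 0.0146, edgeR adjusted p = 0.276). It was −0.39 for MS1262 against wild-type (interval −0.78 to −0.01, edgeR adjusted p = 0.435), a comparison with the same wild-type animals. MS1262 against vehicle gave 0.10 (interval −0.28 to 0.48). In IP CPM, Fto was the only one of the 10 genes without overlap between vehicle and wild-type, as for 6.44% of all genes tested, and Fto and Virma had none between MS1262 and wild-type, as for 13.8%. Between MS1262 and vehicle the IP CPM of each of the 10 genes overlapped, where 2.78% of all genes did not. In IP TPM no gene of the 10 was without overlap between vehicle and wild-type (4.33% of all genes) or between MS1262 and vehicle (2.74%), while Fto and Virma had no overlap between MS1262 and wild-type (9.62%).

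Virma and Mettl14 were the other genes with an unadjusted p below 0.05 between vehicle and wild-type. The log2 IP minus input of Virma was 0.73, 0.57, 0.87 and 0.61 in wild-type, 0.63, 0.44, 0.47 and −0.57 in vehicle and 0.37, 0.46, 0.34 and 0.40 in MS1262 animals. For Virma every MS1262 animal lay below every wild-type animal, as in 10.5% of all genes tested. All 10 genes overlapped in this measure between vehicle and wild-type and between MS1262 and vehicle, where 7.54% and 2.26% of all genes did not. The log2 difference of Virma was −0.42 for vehicle against wild-type (95% interval −0.83 to −0.00, edgeR adjusted p = 0.420) and −0.30 for MS1262 against wild-type (interval −0.71 to 0.10). Without vehicle animals 3 and 4 the first was −0.15 (edgeR adjusted p = 0.716). The log2 IP minus input of Mettl14 was −0.14, 0.40, −0.01 and 0.14 in wild-type, 0.50, 0.84, 0.58 and −0.00 in vehicle and 0.43, 0.29, 0.60 and 0.45 in MS1262 animals. Wild-type animals 2 and 4 and vehicle animal 4 lay inside the range of the other group. Its log2 difference was 0.41 for vehicle against wild-type (interval 0.01 to 0.80, edgeR adjusted p = 0.404), the opposite sign to its difference in input. Since input is subtracted in this measure, these signs are not independent of each other.

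Of the other genes, Rbm15 had the widest intervals, −0.46 to 0.89 on the log2 scale for vehicle against wild-type. Zc3h13 had the narrowest, −0.17 to 0.41 for the same comparison and −0.35 to 0.22 for MS1262 against vehicle. Mettl3, Wtap, Cbll1, Mettl16 and Alkbh5 had log2 differences between −0.23 and 0.21 for vehicle against wild-type, and between −0.02 and 0.13 for MS1262 against vehicle.

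The deposited peak lists, called for each animal on its IP against its own input, held peaks in 6 of the 10 genes in at least 1 animal, beside 34.7% of the 16881 tested genes with a position. This share is not matched for level or gene length, and all of the 10 but Rbm15 lay at a percentile of 58.3 or above in CPM. The 4 genes with no peak in any animal, Wtap, Rbm15, Zc3h13 and Alkbh5, are those that were lower in the IP. Both results come from the same IP and input libraries, so neither is separate support for the other. The lists held 3534 to 5004 peaks per animal in wild-type, 3794 to 6591 in vehicle and 4393 to 6097 in MS1262 animals. The IP libraries of these groups held 10.6 to 48.6, 3.98 to 43.8 and 26.0 to 43.2 M estimated counts. The part of depth in the absence of a peak from an animal was not tested. All lists were merged into 13683 regions, of which 806 were found in all 12 animals and 5194 in 1. No exon annotation of the build was used, so peaks are placed by their distance in the gene and not by exon, intron or UTR.

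**Figure D4:**
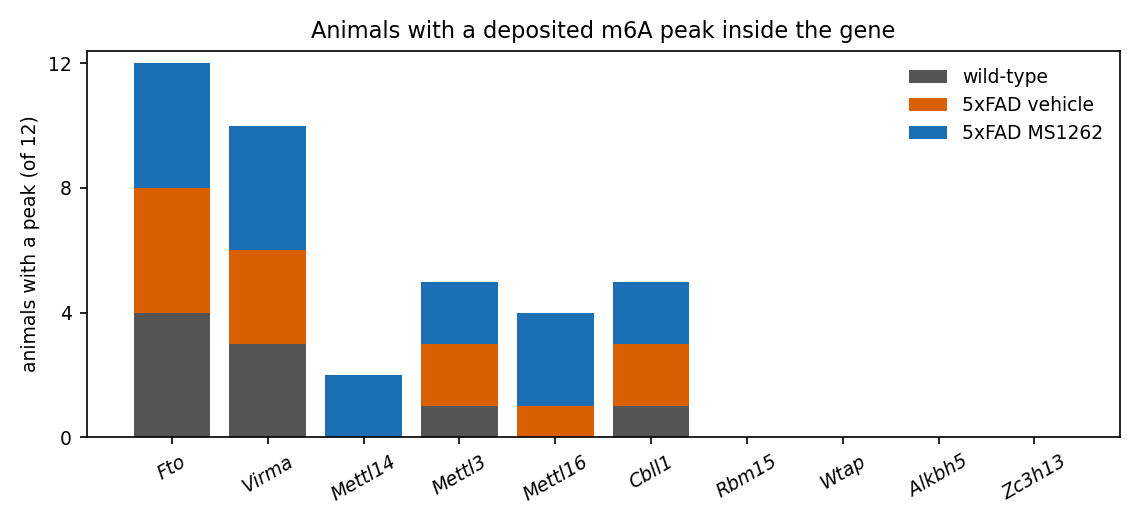
Number of animals with a deposited peak inside each of the 10 genes, stacked by group of 4 animals. Fto reaches 12 of 12 and Virma 10 of 12, the peaks of Mettl14 come from 2 MS1262 animals, and 4 genes have none.

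Fto held 9 merged regions, of which 2 were found in all 12 animals, beside 3.46% of tested genes with at least 1 such region. That share is not matched for level or gene length either, and Fto lay at a percentile of 93.7 in CPM. The first, chr8:91409122-91409995, lay at 27.1% of the gene's length from its 5′ end, with an authors' fold enrichment of 1.53 to 4.13 (median 2.44). The second, chr8:91666159-91668384, lay near the 3′ end, with its median summit 1606 bases from the end of the gene and a fold of 1.42 to 3.21 (median 1.89). Both passed q below 0.01 in 12 of 12 animals. Another region, chr8:91441503-91441942, was found in 10 animals, and chr8:91522626-91523059 in 8, with the higher median fold of 3.49. The other regions were found in 7, 5, 5, 1 and 1 animals. All 3 groups were present in each of the 7 Fto regions found in more than 1 animal. The gene 4831440D22Rik overlaps Fto, Slc16a4 overlaps Rbm15, Gm46470 overlaps Zc3h13, Gm40362 overlaps Cbll1, LOC115487898 overlaps Mettl16 and Tox4 overlaps Mettl3. Reads from such a pair cannot be told apart where they overlap, since the strand of counting is not given in the sources used here, and the values of these 6 genes are uncertain to that extent.

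**Figure D5:**
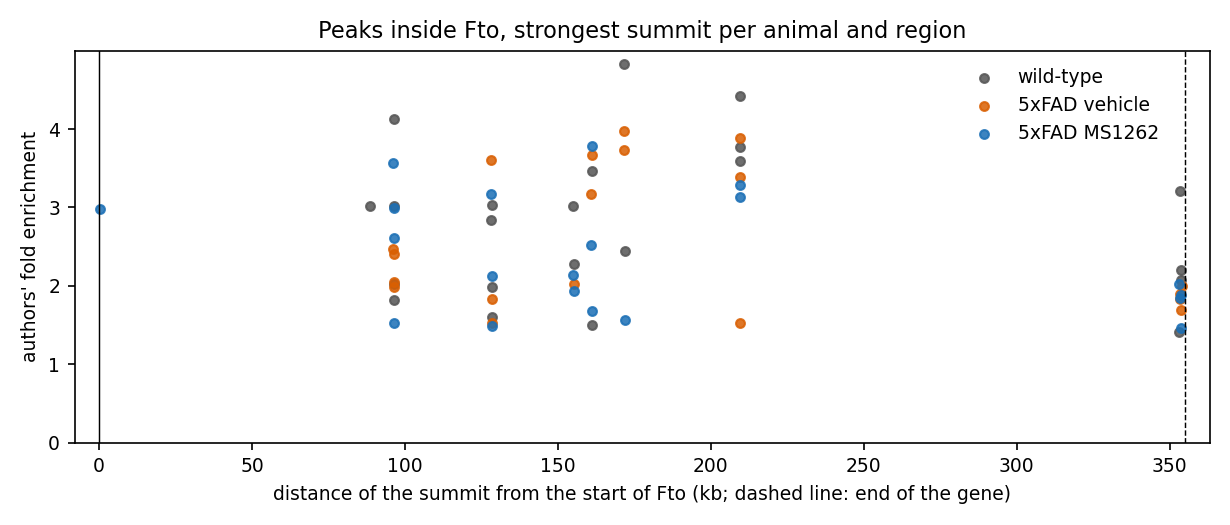
Authors' fold enrichment of the strongest summit per animal and merged region inside Fto, against distance from the start of the gene in kb, with a dashed line at its end. Summits gather in 2 regions shared by all 12 animals, the latter just before the end of the gene, and in 5 regions between 128 and 210 kb that 5 to 10 animals carry.

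Virma held 4 merged regions. The most frequent, chr4:11513157-11514097, was found in 3 wild-type, 3 vehicle and 4 MS1262 animals, with an authors' fold enrichment of 1.88 to 2.52. A second, chr4:11526734-11527157, was found in 0 wild-type, 3 vehicle and 2 MS1262 animals at a fold of 1.92 to 2.40. A region found in at least 3 animals of one group and none of the other made up 2.98% of all merged regions between vehicle and wild-type. The fold of IP over input for Virma was lower in vehicle than in wild-type animals in the gene counts (log2 difference −0.42, and −0.17 without vehicle animal 4), a difference that did not pass.

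Peaks in the other 4 genes were found in fewer animals. Mettl3 had chr14:52299722-52300369 in 1 wild-type, 2 vehicle and 2 MS1262 animals, at a fold of 1.71 to 2.37. It also had a region in 2 animals with its summit 243 bases from the 3′ end, where the neighbouring gene Tox4 overlaps. Cbll1 had chr12:31486579-31487402 in 5 animals, at 86.6% of its length and a fold of 1.41 to 2.18. Mettl16 had chr11:74817181-74818446 in 0 wild-type, 1 vehicle and 3 MS1262 animals, at 83.7% of its length and a fold of 1.59 to 2.33. Under the stricter peak overlap these peaks split into 2 regions, of which 1 was found in 2 or more animals. The same held without vehicle animal 1, whose peak there was 907 bases long, and without MS1262 animal 3. Between MS1262 and wild-type, 5.45% of all merged regions met the same rule of at least 3 animals against none. At q below 0.05 the Mettl16 region remained in 1 vehicle and 2 MS1262 animals and the Cbll1 region in 4 animals. At q below 0.01 the Mettl16 region remained in 1 vehicle and 1 MS1262 animal, and the Cbll1 region in 1 wild-type, 2 vehicle and 0 MS1262 animals. Mettl14 had 2 regions, each in 1 MS1262 animal, with summits 324 and 664 bases from the gene's lower coordinate end.

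Other genes of the m6A pathway did not pass between groups either. Of 12 m6A readers and reader-related genes tested and 9 other RNA methyltransferases, partners and cofactor enzymes, 0 passed in any of the 3 comparisons of input expression or the 3 of IP over input in edgeR. Between IP and input over all animals, 3 of the 12 readers were higher and 6 lower (median log2 difference −0.20), and of the 9 other genes 4 were higher and 1 lower (median 0.05), beside 28.2% of all genes higher and 27.7% lower. Ehmt2, which encodes G9a, and its partner Ehmt1 did not pass between groups either. Their log2 input differences between MS1262 and vehicle were 0.07 for Ehmt2 (95% interval −0.30 to 0.45) and 0.29 for Ehmt1 (interval −0.03 to 0.60), with edgeR adjusted p = 0.961 and 0.863.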

How the data were processed

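MeRIP-seq libraries of 12 mice (input and m6A IP of each) were used as deposited. Per the labels' protocols, 10% of the poly(A) RNA served as input, the rest was bound by a polyclonal antibody, no fragmentation before that step is named, and libraries were made by SMART-seq. Salmon 1.4.0, STAR 2.7.6a, MACS2 2.1.2, SAMtools 1.10, Trimmomatic 0.32 and bcl2fastq 2.17.1.14 are listed in the submitters' processing notes, with GRCm38/mm10, and the settings for expression are not given in the sources used here. The authors deposited estimated counts and TPM per gene symbol, and 22.1% of the nonzero counts were not whole, so they were rounded. Per the file headers, MACS2 peaks were called per animal against its input at a q cutoff of 0.5 with no model and an extension of 200 bases. The authors' peak lists give a pileup signal, a fold enrichment and −log10 p and q of each peak, which are the peak's own values and were used only for description.

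Counts were tested with edgeR 4.0.16 (R 4.3.3; quasi-likelihood F test, 2-sided, TMM scaling, filterByExpr by group at its minimum count of 10, adjustment over all genes by Benjamini-Hochberg, threshold 0.05). Input expression used 12 input libraries and 17693 genes with group as the term. IP over input used 24 libraries and 18300 genes with the animal as a block and IP by group. Both fits had 9 residual degrees of freedom. The input and IP of an animal are pieces of the same RNA by the labels, and each input correlated best with its own IP in 12 of 12 animals. CPM carry the TMM scaling of the 24-library fit, and overlaps and single-sample checks of log2 IP minus input added 0.1 CPM. Peaks sharing 1 base or more across animals were joined into merged regions. The tests were tried on simulated data first.

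All 10 genes, and 38990 symbols in all, matched the RefSeq table of GRCm38.p6, from which positions were taken. The 10 genes are all described, and readers and other methyltransferases are given as counts. The genes, lists and tests were chosen with earlier results of these data known. Replicates are separate animals by the labels, and no replicate pair agreed within sampling noise. Alternatives were DESeq2 1.42.0, RLE scaling, no low-count filter, limma 3.58.1 on log2(TPM + 1) and log2(TPM + 0.1), a replicate block, each animal left out, peaks at q below 0.05 and 0.01 and a stricter peak overlap. Total counts limit precision by counting error only, since amplified reads without molecular identifiers are not independent molecules.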

Additional observations from a re-analysis of the deposited data

Results flagged for a closer look

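In 90 groups of 4 values (10 genes, 3 groups, and input CPM, IP CPM or log2 IP minus input), 4 held an animal set apart from the other 3 by a gap past Dixon's 95% critical value, and chance flags about 1 in 20 such groups. Wild-type animal 1 had an input level of Mettl14 of 17.4 CPM, against 13.5 to 14.001 CPM in the other wild-type animals. Vehicle animal 4 had an IP level of Virma of 34.1 CPM, against 72.3 to 75.6 CPM in the other vehicle animals, and its log2 IP minus input of Virma was −0.565, against 0.442 to 0.63. MS1262 animal 1 had a log2 IP minus input of Fto of 0.473, against 0.998 to 1.03 in the other MS1262 animals.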

How the results depend on the processing

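Of the 10 genes, 0 passed between groups in any alternative run, for input expression and for IP over input, single omissions included. For IP against input over all animals, 8 to 9 of 10 passed over single omissions (9 with all). Of all genes, 51.3% to 58.1% did (55.9% with all). In wild-type animals, 4 to 5 passed (6 with all), beside 23.7% to 27.8% of all genes (33.0% with all). In vehicle animals, 4 to 7 passed (5 with all), beside 32.2% to 39.7% (39.7% with all). In MS1262 animals, 3 to 5 passed (6 with all, and 3 without MS1262 animal 3), beside 28.3% to 33.3% (38.1% with all). Of 1440 values of single genes under an alternative, 1354 kept direction and call, 32 lost the call, 27 gained it and 27 changed sign. Values that passed in neither fit count as kept, and 90 of those 1060 had another sign.

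All 27 changes of sign were of IP against input in TPM. Over all animals, log2(TPM + 1) and log2(TPM + 0.1) gave 0.0713 and 0.0746 for Wtap, 0.0539 and 0.0939 for Rbm15, 0.592 and 0.629 for Cbll1 (0.209 on log2(TPM + 1) centred on the median gene), and 0.0713 and 0.0806 for Alkbh5. In wild-type they gave 0.139 and 0.150 for Wtap and 0.0218 and 0.0259 for Alkbh5. In vehicle they gave 0.0316 and 0.0270 for Wtap, 0.0605 and 0.0606 for Zc3h13, 0.659 and 0.702 for Cbll1 and 0.0760 and 0.0798 for Alkbh5. In MS1262 they gave 0.0433 and 0.0469 for Wtap, 0.496 and 0.525 for Cbll1 and 0.116 and 0.136 for Alkbh5.

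Counts over all genes moved more. Vehicle against wild-type in input gave 278 genes, 610 with DESeq2, 134 with the replicate block and 108 to 297 over single omissions. MS1262 against wild-type gave 230, 635 with DESeq2, 124 in TPM and 105 to 174. IP over input gave 181 between vehicle and wild-type (503 with DESeq2, 489 with no filter, 33 in TPM, 97 with the block, 343 without vehicle animals 3 and 4, 33 to 408 over omissions). Between MS1262 and wild-type it gave 227 (515, 502, 3 and 120, and 58 to 180 over omissions). Between MS1262 and vehicle it gave 0, and 2, 42, 0 and 1. The median-gene centring and the joint omission of vehicle animals 3 and 4 were chosen after seeing the data. The cause of these moves was not tested.

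Animal numbers do not pair the groups: input libraries with the same number correlated at −0.0931 to 0.0538, and 1 of 12 matched its own number best. With the replicate block 0 of the 10 genes passed in each of the 6 comparisons between groups, beside 0% to 0.95% of all genes. Counting error alone gives a coefficient of variation from 1.33% (Fto) to 8.14% (Rbm15) in input, below the spread between animals for each of the 10 genes. The shallowest library is the 3.98 M IP of vehicle animal 4.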
